A study of Mus musculus with 8 samples.

Results

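Phosphatidylcholine is the main phospholipid of cell membranes, lipoproteins and bile, and the liver makes it by 2 routes. In the CDP-choline route, choline is phosphorylated by a choline kinase, activated with CTP and joined to diacylglycerol. In the other route, which is characteristic of hepatocytes, phosphatidylethanolamine made from ethanolamine by a parallel set of enzymes is methylated by Pemt. Choline is won back from breakdown products of the lipid, and lysophosphatidylcholine, its form with a single fatty acid, is carried across membranes by Mfsd2a.

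The 10 genes described here are Chka, Chkb and Etnk2 (kinases), Pcyt1a and Pcyt2 (activation with CTP), Chpt1 and Cept1 (joining to diacylglycerol), Pemt (methyltransferase), Gpcpd1 (breakdown) and Mfsd2a (transport). They were chosen by name, and all 10 were found among the 24353 genes named in the deposited tables. Each gene is represented by the transcript with the largest sum of the deposited lower value over all libraries. That sum chose the transcript, so the levels below are a description.

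The series holds 8 libraries of polyadenylated RNA from livers of wild-type C57/BL6 mice, taken every 6 h at circadian time (CT) 23, 29, 35, 41, 47, 53, 59 and 65. The mice had been kept for a week in light and dark phases and then for a day in constant darkness. Each library pools equal RNA of 3 animals, and no time has a second library. The labels give neither sex nor age, and all groups share genotype, strain and treatment. Every clock phase was sampled on 2 days: the CT23 phase (CT23 and CT47) ends the subjective night, CT5 (from CT29 and CT53) is the middle and CT11 (from CT35 and CT59) the end of the subjective day, and CT17 (from CT41 and CT65) is the middle of the subjective night. The spread that the tests use is therefore that of single pools around a curve, not that of animals.

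Levels are in RPKM, reads scaled for the length of the transcript and the depth of the library. The depth by which they were scaled ranged between 11.7 and 13.9 mega-reads for 7 of the libraries, and CT35, which stands apart in depth, had 22.9 mega-reads. CT35 also had more junction reads for its gene reads, 14.7 mega-reads over junctions and 16.8 in named genes. The other 7 libraries had 5.27 to 6.23 and 7.77 to 8.94 mega-reads. The cause was not tested. The clock genes checked the time labels: Arntl peaked at CT21.6 with a fitted peak-to-trough fold of 15.9, and Dbp peaked at CT9.3 with a fold of 115 (limma adjusted p = 0.0013 and 2.2e-04). All 6 hepatocyte markers were present, with Alb at 26546 to 53810 RPKM. Of 4 pancreas markers, Prss1 and Pnlip were at 0 in all 8 libraries, Cpa1 was above 0 only in CT47 (0.049 RPKM), and Cela1 had 1.54 to 4.91 RPKM. In RNA of whole liver, fewer cells of a type and less RNA per cell cannot be told apart.

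Of the 10 genes, 3 had a 24-h rhythm, with peaks at opposite times: Chka was high at the end of the subjective night, and Gpcpd1 and Mfsd2a were high at the end of the subjective day. The fitted peak-to-trough folds were 4.86 for Chka, 11.5 for Gpcpd1 and 14.7 for Mfsd2a, against a median of 1.32 over all genes tested. The enzymes of the later steps did not pass the test, and neither did Pemt, Chkb or Etnk2. A curve of 24 h was fitted to log2(RPKM + 0.5) with limma, and an adjusted p under 0.05 over 10930 genes is called. This called 1.84% of all genes (201), and the genes described here had been listed with earlier results of these data known, so that their 3 calls are a description of them and not evidence about the pathway.

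**Figure D1:**
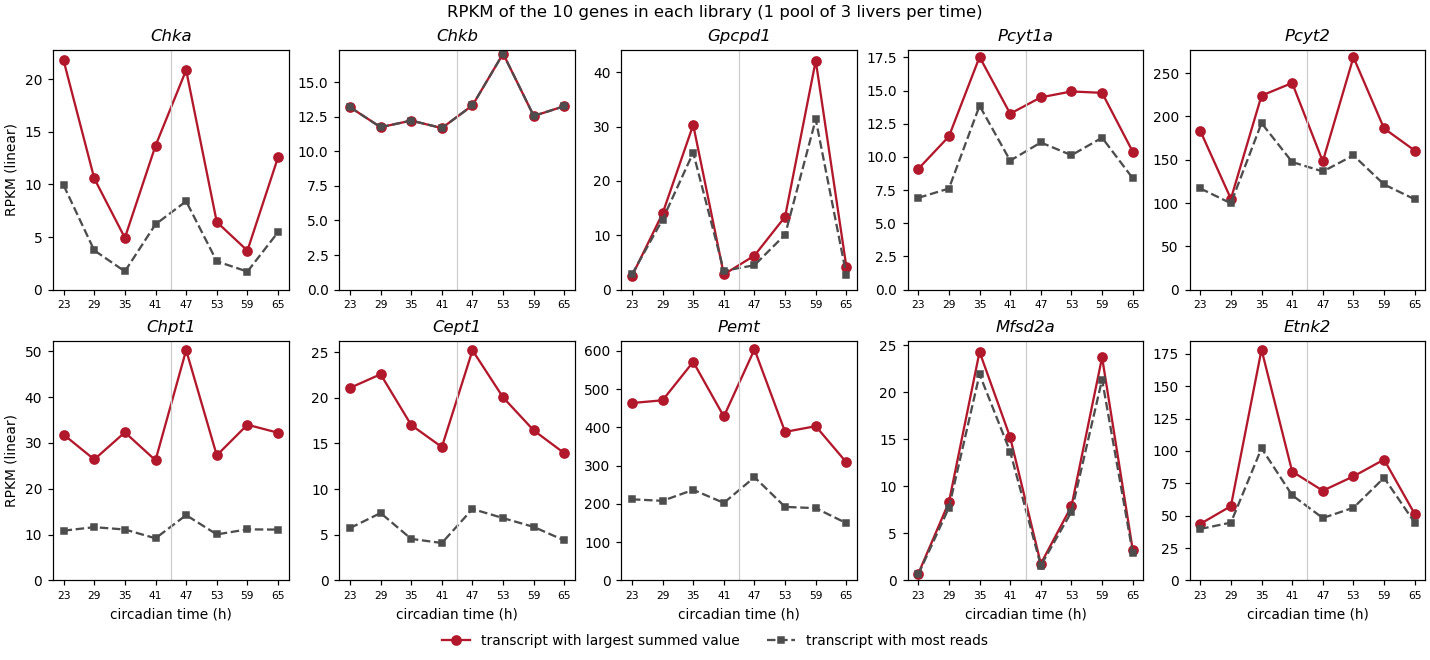
RPKM (vertical axes, linear, each from 0) against circadian time in hours for the 10 genes, 1 point per library. Circles are the transcript with the largest summed value, squares the transcript with the most reads, and the grey line parts the first from the second day. Chka is highest in CT23 and CT47, and Gpcpd1 and Mfsd2a are highest in CT35 and CT59.

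Chka encodes choline kinase alpha, which catalyses the first step of the CDP-choline route. Its transcript measured 21.8, 10.6, 4.93, 13.7, 20.9, 6.43, 3.71 and 12.6 RPKM from CT23 to CT65. Both CT23 libraries lay above all others and both CT11 libraries below all others, so the phases did not overlap on either day. The fitted peak was at CT21.9 ± 0.44 h (SE) and the log2 peak-to-trough difference was 2.28 ± 0.26 (limma adjusted p = 0.0037).

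The contrast of CT23 with CT11 was 2.19 ± 0.26 on the log2 scale (limma adjusted p = 0.0018). It was 2.34 on the second day and 2.04 on the first. In that direction the contrast called 0.686% of all genes, and Chka was the only one of the 10 genes called higher at CT23. Chka remained called under all 20 alternatives tried, with adjusted p of 1.9e-06 to 0.046.

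The Chka transcript chosen by its level is short, 275 bases in 3 exons with 344 reads in all, at chr19:3875365-3884585 (mm9). The transcript with the most reads has 4652 bases, 10 exons and 2440 reads, and spans chr19:3851810-3894367. On it the level was 9.92, 3.73, 1.74, 6.21, 8.40, 2.70, 1.72 and 5.47 RPKM, with a fold of 4.77 and a peak at CT21.6 (limma adjusted p = 3.5e-04; 3.05% of 11558 genes were called on such transcripts). The order of the phases was the same on both.

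Over the 10 exons of the longer transcript the fitted fold ran between 2.33 and 6.17 and the peak between CT20.8 and CT23.0. Exon RPKM can exceed that of the transcript. How a read that crosses a junction was counted in the exons it touches was not given in the sources used here. Exon 8, of 2334 bases, had 4.58 RPKM in CT23, between exon 7 at 47.1 and exon 9 at 33.7 RPKM, and lay below the 9.92 RPKM of the whole transcript. Most of exon 8 is an intron, chr19:3889989-3892106, in another annotated Chka transcript. Reads that spliced it out numbered 9 in CT23 and 12 in CT47. Exon 8 also had the earliest peak, at CT20.8.

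Spliced reads showed a short exon of Chka that is left out in part of the RNA. The exon has 54 bases at chr19:3875735-3875788 (mm9), and its letters, read from the GENCODE vM21 transcript with the same identifier and length, are given to show what the skipping junction removes.
Chka 54-base exon: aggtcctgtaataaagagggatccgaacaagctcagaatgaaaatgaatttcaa
Over all 8 libraries 23 reads skipped it and 61 joined it to the exon that the skipping reads end in, a share of skipping reads of 27.4% (Wilson 95% interval 19.0 to 37.7%, counting error only). Only 34 reads joined it to the exon that the skipping reads start in, so the share would be higher on that side. Some reads also entered the exon from other upstream exons. The reads were too few to follow this share by time.

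The promoter of Chka, from 250 bases before to 50 after the start, is shown because Chka is the member that peaked at night.
Chka promoter, chr19:3851523-3851822, plus strand (RefSeq, GRCm38.p6): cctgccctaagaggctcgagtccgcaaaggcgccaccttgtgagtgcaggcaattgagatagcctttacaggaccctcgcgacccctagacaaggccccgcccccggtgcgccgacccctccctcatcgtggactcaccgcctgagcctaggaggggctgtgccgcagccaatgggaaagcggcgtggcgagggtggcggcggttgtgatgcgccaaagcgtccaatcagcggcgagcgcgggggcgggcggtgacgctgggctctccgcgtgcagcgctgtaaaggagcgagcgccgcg
It was searched on both strands for the E-box CACGTG, its variant CACGTT, the D-box forms TTANNTAA and TTATGNAA, the RORE core AGGTCA and the sterol element TCACNCCAC. None of these letters is in this window. Of 32851 promoters of that length, 7.15% hold CACGTG, 4.68% CACGTT, 6.003% TTANNTAA, 3.38% TTATGNAA, 16.3% AGGTCA and 1.24% TCACNCCAC.

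Of 4 markers of bile duct cells, Sox9 was on average highest at the phase at which Chka was highest. The summed RPKM of the 4 was 10.8 and 6.71 in the CT23 libraries and 6.01 and 3.599 in the CT11 libraries, and none of the 4 was at 0. In CT65 the sum was 6.81, a little above that of CT47. Sox9 had 7.71 and 4.15 RPKM in the CT23 libraries and 1.12 and 2.16 in the CT11 libraries, a fold of 3.26 and a peak at CT21.5 (limma adjusted p = 0.058 for the rhythm). Epcam had 0.53 and 0.45 RPKM in CT47 and CT23 and 0.87 and 0.89 in CT59 and CT35 (peak at CT12.6, limma adjusted p = 0.36). Krt7 and Krt19 were highest in CT35, at 1.498 and 2.496 RPKM. The contrast of CT23 with CT11 was called for 1 of the 3 bile duct markers tested, beside 0.686% of all genes higher at CT23. The part of these cells in the level of Chka was not tested.

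Chkb encodes choline kinase beta, the second choline kinase. It measured 13.2, 11.7, 12.2, 11.7, 13.3, 17.1, 12.5 and 13.3 RPKM from CT23 to CT65. All libraries but CT53 lay close together, and the fitted fold was 1.15 (limma adjusted p = 0.88). Of its exon bases, 81.0% are shared with Gm44502 on the same strand, so reads of both cannot be separated.

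Etnk2 encodes an ethanolamine kinase, which opens the parallel route to phosphatidylethanolamine. It measured 43.7, 57.4, 178, 84.1, 69.3, 80.4, 93.4 and 51.4 RPKM. CT35 held the highest value and CT59 the next, but CT59 lay only a little above CT41 and CT53. The fitted fold was 2.33 with the peak at CT10.9 (limma adjusted p = 0.26), and without CT35 the log2 peak-to-trough difference was 0.72, against 1.22 with it. Among the 20 alternatives, adjusted p ran between 0.034 and 0.58, and DESeq2 gave the 1 call (5.27% of all genes were called by DESeq2).

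Pcyt1a makes CDP-choline, the step regarded as rate-limiting in the CDP-choline route. It measured 9.10, 11.5, 17.5, 13.3, 14.5, 14.9, 14.8 and 10.4 RPKM, so that CT35 was highest and CT23 lowest while CT47, of the same phase as CT23, lay among the higher values. Its fitted fold was 1.41 (limma adjusted p = 0.59). Of its 3 RefSeq promoters, 2 that overlap hold the same sterol element TCACNCCAC, at 116 and at 215 bases before their starts.

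Pcyt2 makes CDP-ethanolamine and was the second most abundant of the 10 genes. It measured 183, 105, 224, 238, 148, 268, 186 and 161 RPKM. The CT5 libraries, CT53 at 268 and CT29 at 105, were the highest and the lowest of all 8, and the fitted fold was 1.30 (limma adjusted p = 0.84). The transcript behind these values has 360 bases in 2 exons. On the transcript with the most reads (1835 bases, 14 exons) the CT5 libraries had 155 RPKM in CT53 and 99.7 in CT29. CT29 was the lowest there too, but CT35 was the highest, at 192 RPKM.

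An exon of 54 bases within this stretch of Pcyt2, at chr11:120474344-120474397 (mm9, minus strand), is left out in a small part of the RNA. Its letters come from the GENCODE vM21 transcript with the same identifier and length.
Pcyt2 54-base exon: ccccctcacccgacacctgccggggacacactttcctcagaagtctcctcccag
Of 3022 reads over all libraries, 125 skipped it and 2897 joined it to the exon on its 5′ side (share of skipping reads 4.14%, Wilson 95% interval 3.48 to 4.91%). On its 3′ side 1865 reads joined it, and shares with that side were not computed. By library the share of skipping reads was 3.26, 8.76, 3.803, 3.05, 8.50, 3.24, 1.78 and 5.12% from CT23 to CT65.

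Counted with the 5′ side, the shares were highest in CT29 (interval 5.08 to 14.7%) and CT47 (5.63 to 12.7%) and lowest in CT59 (0.76 to 4.10%). The other library of the same phase was low in both cases, CT53 at 3.24% and CT23 at 3.26%, so the share did not follow the clock phase on both days. Counted with the 3′ side, CT47 stood less apart. CT65 had 17 skipping and 176 joining reads there, and CT47 had 21 and 204. CT29 and CT47 were also the libraries in which the short transcript of Pcyt2 was lowest. The joining reads on the 5′ side are the junction reads of that short transcript (125 in CT29, 226 in CT47). A low level of it therefore raises the share, and these observations are not independent. A form of the exon of 238 bases was joined by 138 reads, 6.89% of the 2003 reads of the pair of junctions concerned.

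**Figure D2:**
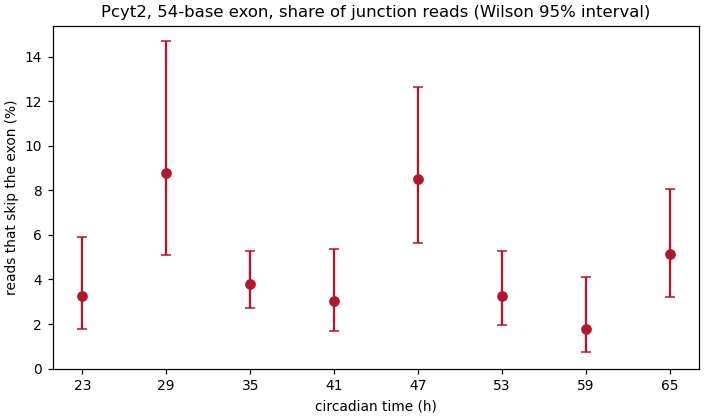
Share of Pcyt2 junction reads that skip the 54-base exon, in percent, against circadian time in hours, with joining reads counted on the 5′ side of the exon only. Points are libraries and bars are Wilson 95% intervals that cover counting error only. CT29 and CT47 lie at 8.76 and 8.50%, and the other 6 libraries lie between 1.78 and 5.12%.

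Chpt1 and Cept1 join the activated head group to diacylglycerol, Chpt1 with choline only and Cept1 with choline or ethanolamine. Chpt1 measured 31.8, 26.4, 32.3, 26.2, 50.3, 27.3, 34.0 and 32.2 RPKM, with CT47 above all others, and its fitted fold was 1.22 (limma adjusted p = 0.85). Cept1 measured 21.1, 22.6, 17.02, 14.6, 25.2, 20.04, 16.4 and 13.9 RPKM. On both days Cept1 was higher in the CT23 and CT5 libraries than in the CT11 and CT17 libraries.

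On the chosen transcripts Cept1 had the smallest gaps between days of the 10 genes, at most 0.25 on the log2 scale within a phase. On transcripts with the most reads it did not. There its largest gap was 0.42, against 0.38 for Chpt1 and 0.41 for Chka. The Cept1 fold of 1.65 on the chosen transcript, with the peak at CT2.4, did not pass the test (limma adjusted p = 0.26, and 0.12 to 0.50 over 20 alternatives). On the transcript with the most reads, 27.4% of its exon bases overlap Dennd2d on the opposite strand, and 10.8% of those of Chpt1 overlap Sycp3.

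Pemt, the liver enzyme that methylates phosphatidylethanolamine, was the most abundant of the 10. It measured 464, 471, 572, 429, 604, 388, 403 and 309 RPKM. The highest value was in CT47 and the lowest in CT65, and the phases overlapped, with a fitted fold of 1.21 (limma adjusted p = 0.87). The transcript behind these values has 396 bases in 5 exons, and the junction from its first exon had 1 read, in CT47. On the transcript with the most reads (1003 bases, 7 exons) Pemt averaged 208 RPKM, against 455 on the chosen one, and was still the most abundant of the 10. Of 2888 reads at the first intron of that most-read transcript, 33 (1.14%) came from a first exon further upstream.

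Gpcpd1 encodes a phosphodiesterase that splits glycerophosphocholine, a breakdown product of phosphatidylcholine, and so releases choline. It measured 2.51, 14.02, 30.3, 2.80, 6.28, 13.4, 42.1 and 4.22 RPKM. Both CT11 libraries lay above both CT5 libraries, and these above all 4 libraries of CT17 and CT23. The fitted peak was at CT8.9 ± 0.51 h (SE) and the log2 peak-to-trough difference was 3.53 ± 0.47 (limma adjusted p = 0.0088).

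The contrast of CT23 with CT11 was -3.004 ± 0.47 on the log2 scale for Gpcpd1 (limma adjusted p = 0.011), -2.65 on the second day and -3.36 on the first. It was called for 0.631% of all genes in that direction. The call was lost without CT23 (adjusted p = 0.073), without CT35 (0.053) and without CT59 (0.085), and over 20 alternatives adjusted p ran between 2.0e-08 and 0.11. The 24-h test itself kept its call with each of these 3 libraries left out.

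The contrast of CT5 with CT17 was 1.85 ± 0.47 for Gpcpd1 and was not called (limma adjusted p = 0.12, and 0.016 to 0.49 over 20 alternatives). None of the 10 genes was called for it, beside 0.64% of all genes. On transcripts with the most reads it was called for Gpcpd1 alone (1.74, limma adjusted p = 0.048). The median of all genes in this contrast was 0.11 on the log2 scale, and 0.00024 after TMM rescaling.

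The Gpcpd1 transcript chosen by level covers 581 bases in 6 exons of the 3′ part of the gene, at chr2:132359888-132363863 (mm9). The transcript with the most reads has 3686 bases in 20 exons at chr2:132354818-132403969 and measured 2.81, 12.9, 25.2, 3.46, 4.50, 10.1, 31.3 and 2.74 RPKM. Its fold was 9.89 with the peak at CT8.9 (limma adjusted p = 0.0016). All 20 exons peaked between CT8.5 and CT10.8, with folds of 8.59 to 19.4.

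The 5′ and 3′ ends of Gpcpd1 did not keep one ratio. The level over exons 15 to 20 divided by that over exons 1 to 6 was 0.91, 0.83, 0.57, 0.59, 1.63, 0.84, 0.72 and 1.002 from CT23 to CT65. CT47 lay apart, with 9.21 RPKM over the last 6 exons and 5.64 over the first 6, while CT23, of the same phase, had 4.80 and 5.30 RPKM. The chosen transcript lies in the 3′ part, and its CT47 value exceeded that of CT23 by 1.17 on the log2 scale. For Chkb the last 3 exons over the first 3 varied more, between 0.594 and 2.487. For Pcyt1a the same ratio varied less, between 0.869 and 1.345. Uneven ends were therefore not particular to Gpcpd1, and their cause was not tested.

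**Figure D3:**
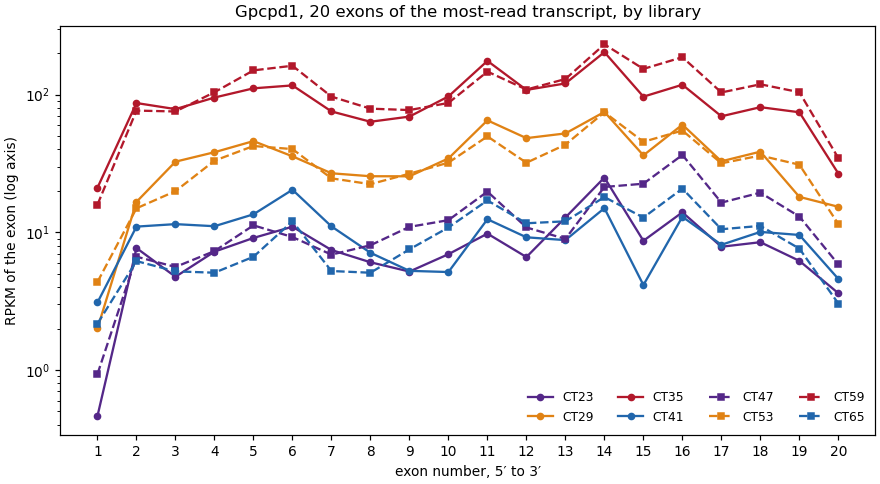
RPKM of each of the 20 exons of Gpcpd1 (log axis) against exon number from 5′ to 3′, 1 line per library; solid lines are the first day, dashed lines the second, and colour marks the clock phase. The CT35 and CT59 lines lie above all others at every exon, and the CT47 line leaves the CT23 line from exon 15 on.

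Mfsd2a encodes a sodium-dependent transporter of lysophosphatidylcholine, best known for carrying omega-3 fatty acids into the brain and, in mouse liver, as a gene induced by fasting. It measured 0.72, 8.32, 24.3, 15.2, 1.78, 7.88, 23.7 and 3.27 RPKM. The CT11 libraries were the highest and the CT23 libraries the lowest, and neither overlapped another phase. The CT17 libraries differed, with 3.27 RPKM in CT65 and 15.2 in CT41, one below and the other above both CT5 libraries.

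The fitted peak of Mfsd2a was at CT10.8 ± 0.52 h (SE) and its log2 peak-to-trough difference was 3.88 ± 0.53 (limma adjusted p = 0.0095). The contrast of CT23 with CT11 was -3.88 ± 0.53 (limma adjusted p = 0.0048), -3.41 on the second day and -4.34 on the first. It was called in 18 of 20 alternatives. The exceptions were no filter on low values (adjusted p = 0.077) and the transcript with the most reads without CT35 (0.15).

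The 5 Mfsd2a transcripts in the tables peaked between CT10.80 and CT10.85, with folds of 14.4 to 29.4, and all 14 exons of the one with the most reads peaked between CT10.5 and CT11.1. The lowest library rested on 18 reads over the chosen transcript (CT23), against 1066 in CT35. Of 149 reads at one junction, 25 (16.8%) used a splice site 3 bases from that of the others.

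The promoter of Mfsd2a is shown because Mfsd2a had the largest fold of the 10, with the letters that match a searched motif in capitals.
Mfsd2a promoter, chr4:122961139-122961438, minus strand (RefSeq, GRCm38.p6): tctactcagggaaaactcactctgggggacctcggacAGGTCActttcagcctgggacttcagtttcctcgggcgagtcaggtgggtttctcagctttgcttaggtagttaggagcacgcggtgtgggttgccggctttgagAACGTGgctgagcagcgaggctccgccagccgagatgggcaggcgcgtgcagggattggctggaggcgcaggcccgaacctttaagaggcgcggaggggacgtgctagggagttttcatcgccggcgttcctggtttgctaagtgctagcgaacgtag
The capitals mark AGGTCA at 213 bases before the start and, at 108 bases before it, CACGTT on the other strand. The table held 13 promoters for 8 of the 10 genes, and 7 of them, belonging to Cept1, Mfsd2a and Pcyt1a, held a searched motif. This counts some sites more than once, since overlapping promoters of Cept1 share a CACGTT site and those of Pcyt1a a TCACNCCAC site. The share of all promoters with any of the motifs was not computed. A match is a description of the letters only.

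**Figure D4:**
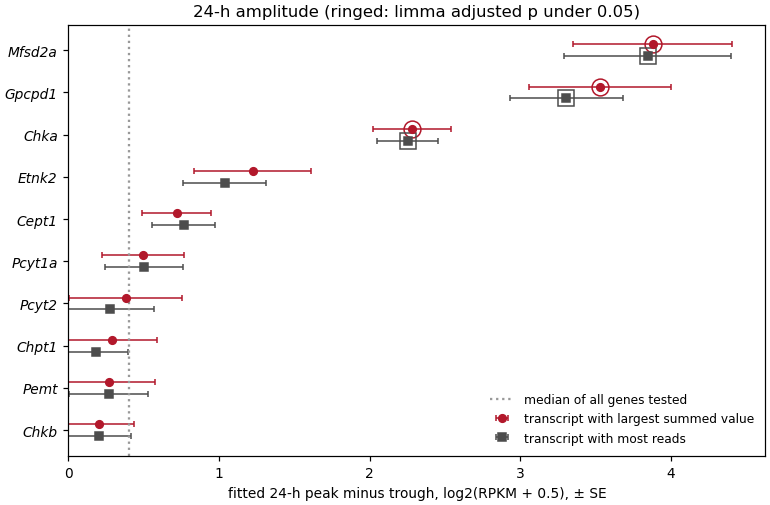
Fitted 24-h peak minus trough in log2(RPKM + 0.5), with its SE, for the 10 genes (rows); circles are the transcript with the largest summed value, squares the one with the most reads, and a ring marks a limma adjusted p under 0.05. Mfsd2a, Gpcpd1 and Chka lie at 3.88, 3.53 and 2.28 and are ringed on both transcripts, and the other 7 genes lie between 0.20 and 1.22.

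Ordered by mean level per length, the 10 genes ran from Pemt (455 ± 96.6 RPKM, SD over 8 libraries) over Pcyt2 (189 ± 52.9), Etnk2 (82.2 ± 42.4), Chpt1 (32.6 ± 7.76), Cept1 (18.9 ± 4.003), Gpcpd1 (14.5 ± 14.5), Pcyt1a (13.3 ± 2.77), Chkb (13.1 ± 1.72) and Chka (11.8 ± 6.86) to Mfsd2a (10.6 ± 9.43). Only Pemt and Pcyt2, and Chpt1 and Cept1, were neighbours whose ranges did not overlap. Etnk2 exceeded Chpt1 and Pcyt2 exceeded Etnk2 in all 8 libraries. From Cept1 to Mfsd2a every neighbour overlapped, and the order changed with the library: Chka exceeded Mfsd2a in 4 of 8 libraries. On transcripts with the most reads, Chkb stood next after Etnk2 and Chka came last. That Chka transcript of 4652 bases includes the long exon 8 with few reads. In CT23 it had 9.92 RPKM, against 15.3 for the RefSeq transcript of Chka of 2571 bases, so this place depends on the transcript.

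Over the 8 libraries the log2 levels of Chka and Gpcpd1 correlated at -0.90 (Pearson), of Chka and Mfsd2a at -0.85, and of Gpcpd1 and Mfsd2a at 0.71, as a description of 8 points that share their libraries. The genes most like Chka among 10920 were Nid2 (0.979), Tjp3 (0.978) and Cdh1 (0.978). Most like Gpcpd1 were Rnf169 (0.974), Slc25a32 (0.973) and Gm14097 (0.972), and most like Mfsd2a were Xdh (0.993), Sntg2 (0.988) and Lpin1 (0.981).

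Introns are read from RNA that is not yet spliced, and their level was compared with that of the transcript. The chosen transcripts of Chka and Pcyt2 have no intron free of annotated exons. None of the 5 genes that could be tested was called (2.25% of 5685 genes were), with Gpcpd1 at a log2 peak-to-trough difference of 3.11 ± 0.68 and Mfsd2a at 3.59 ± 0.80 (limma adjusted p = 0.11 and 0.14). Gpcpd1 was called without CT41 (8.8e-04), CT47 (0.0043) or CT53 (0.0097), and Mfsd2a without CT29 (0.030), CT35 (0.021) or CT41 (1.2e-05).

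The transcripts with the most reads have more introns, and this choice was made after the data were seen. Chka introns then measured 1.58, 0.25, 0.29, 0.84, 1.34, 0.26, 0.29 and 0.79 RPKM. The CT23 libraries were highest, as in the exons, but CT5 was as low as CT11, whereas the exons had 3.73 and 2.70 RPKM in the CT5 libraries and 1.74 and 1.72 in the CT11 libraries. The intron fold was 6.19 with the peak at CT20.6 (limma adjusted p = 9.0e-06; 2.98% of 7316 genes were called).

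Gpcpd1 introns measured 0.097, 0.46, 0.38, 0.10, 0.075, 0.31, 0.64 and 0.11 RPKM, so that the CT5 and CT11 libraries lay above all of CT17 and CT23. Their fold was 5.60 with the peak at CT8.6 (limma adjusted p = 6.3e-06). Mfsd2a introns measured 0.050, 1.43, 1.24, 1.26, 0.15, 0.58, 2.18 and 0.29 RPKM. Both CT23 libraries were the lowest, and the fold of 12.2 with the peak at CT10.4 was not called (limma adjusted p = 0.17, and 1.2e-05 to 0.40 over the 12 intron alternatives).

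Without CT35 the introns of Chka and Gpcpd1 stayed called (limma adjusted p = 6.6e-04 and 4.6e-04). The test of the difference between transcript and introns called none of the 10 genes, with adjusted p of at least 0.785 on either choice of transcript. It called 0.0365% of 5484 genes (2), and 351 genes had an unadjusted p under 0.05. For Chka the difference had a log2 peak-to-trough of 0.74 ± 0.35 (limma adjusted p = 0.79), so a difference of the introns from the transcript was not shown.

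**Figure D5:**
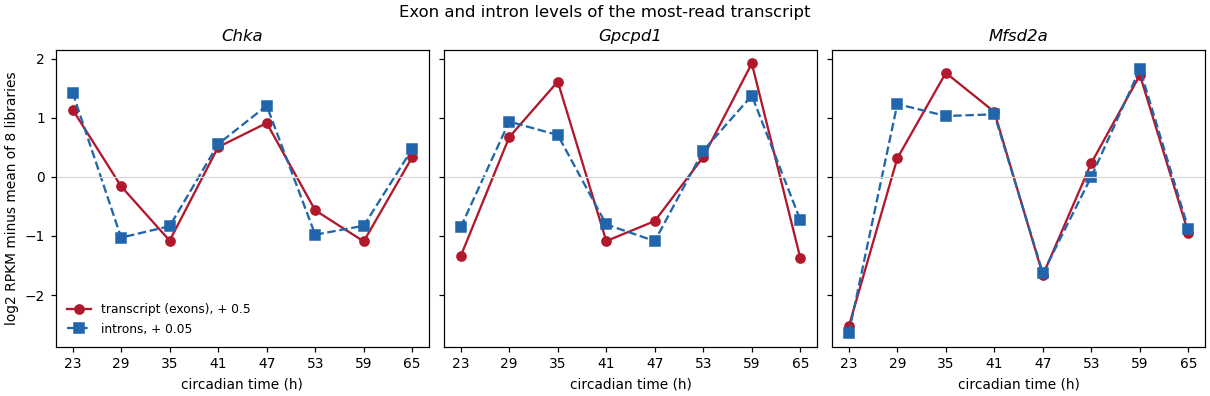
Log2 RPKM minus the mean of the 8 libraries against circadian time in hours for Chka, Gpcpd1 and Mfsd2a; circles are the most-read transcript (0.5 added) and squares its introns (0.05 added). Exons and introns of each gene are high in the same part of the cycle, and Chka introns are already low in CT29 and CT53.

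Reads across splice junctions count spliced RNA. Those of the chosen transcripts called Gpcpd1 (fold 7.16, peak at CT9.3, edgeR adjusted p = 0.019) and Mfsd2a (fold 13.99, peak at CT11.3, edgeR adjusted p = 0.015), beside 1.74% of 7427 genes. Junction reads of Mfsd2a numbered 11, 111, 772, 188, 28, 111, 321 and 54, not scaled for depth. The call of Gpcpd1 was lost without CT23 (0.096), and that of Mfsd2a without CT23 (0.056), CT47 (0.062) or CT59 (0.073).

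Chka had too few such reads on its short transcript. Over junctions of any of its transcripts it had 229, 135, 80, 136, 237, 79, 34 and 176 reads, with a fold of 7.07 and a peak at CT22.1 (edgeR adjusted p = 0.0070; 2.21% of 8737 genes were called). On that choice, made after the data were seen, Gpcpd1 was called at 0.0014 and Mfsd2a was not (0.059).

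The difference between the second and the first day was called for none of the 10 genes and for no gene tested (0%, limma adjusted p = 0.9999 for each of the 10), while 259 genes had an unadjusted p under 0.05. Gpcpd1 was 0.52 ± 0.21 higher on the second day on the log2 scale on the chosen transcript and 0.07 ± 0.19 on the one with the most reads. With 1 library left out, the difference on the chosen transcript ran between 0.31 (without CT23 or CT47) and 0.72 (without CT29 or CT53). The largest gaps between libraries of a phase were -2.06 for Mfsd2a (CT65 minus CT41), 1.35 for Pcyt2 (CT53 minus CT29) and 1.17 for Gpcpd1 (CT47 minus CT23).

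The other genes of the pathway were read from lists drawn up with earlier results known, and 1 gene was called among 44 tested, a share near the 1.84% called over all genes. It was Phospho1, a phosphatase of phosphocholine and phosphoethanolamine known from bone mineralization, with 20.5, 11.3, 4.08, 5.38, 22.2, 18.2, 5.57 and 11.9 RPKM from CT23 to CT65. The CT23 libraries were the highest, and the fold was 4.61 with the peak at CT0.4 (limma adjusted p = 0.019). The call was lost without CT23 (0.065), CT47 (0.055) or CT59 (0.064).

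It was 1 of 7 tested genes of phosphatidylcholine, phosphatidylethanolamine and phosphatidylserine synthesis outside the 10, whose median fold was 1.23. There the most abundant genes not called were Etnppl, which breaks down phosphoethanolamine (41.9 RPKM on average, fold 1.07), and Pisd, which makes phosphatidylethanolamine in mitochondria (12.1 RPKM, fold 1.04).

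Of choline and ethanolamine uptake, 0 of 7 tested genes were called, with a median fold of 1.19. Slc44a1, a choline transporter-like protein, averaged 5.53 RPKM (fold 1.73). Of choline oxidation and methyl use, 0 of 8 were called (median fold 1.23), with the methyltransferase Gnmt at 1097 RPKM and sarcosine dehydrogenase, Sardh, at 633 RPKM. The high-affinity choline transporter of neurons, Slc5a7, was at 0 in every library.

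Of phospholipid remodelling and breakdown, 0 of 15 tested genes were called (median fold 1.36). Lcat, which esterifies cholesterol in plasma with a fatty acid of phosphatidylcholine, averaged 441 RPKM (fold 1.16), and Pnpla7, a lysophospholipase, 99.9 RPKM (fold 1.37). Of transfer, export and sphingomyelin genes, 0 of 7 were called (median fold 1.61), among them the phospholipid transfer proteins Stard10 at 670 RPKM (fold 1.09) and Pltp at 73.9 RPKM (fold 1.72). By edgeR, which called 2.55% of all genes, the remodelling list had 1 call, Gde1, a glycerophosphodiesterase (adjusted p = 0.047), and without CT35, when 2.57% were called, the transfer list had 1, Sgms2, a sphingomyelin synthase (limma adjusted p = 0.046); both were named after their values were seen.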

How the data were processed

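Liver RNA of 8 pools was sequenced, with mm9 as the build in the submitters' processing notes; which program quantified the reads was not given in the sources used here. Per the file headers, the deposited tables give a lower and an upper value per transcript, exon and intron, which behave as RPKM, a scale that falls under no standard unit named there. The lower value was used. It gave whole reads within 0.1 read for 99.60 to 99.80% of transcripts. Deposited junction counts are whole-number reads, named RUM high-quality junctions per the file headers. Whether counting used strand was not given either.

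Gene names came from RefSeq and Vega identifiers matched to GRCm38.p6 and GENCODE vM21 annotation (68.89% of 115699 transcripts). A gene was tested if 2 or more libraries held at least 20 of its recovered reads. Its log2(RPKM + 0.5; introns + 0.05) was fitted with limma 3.58.1 (trend, robust) by a 24-h cosine and sine from CT23 (5 residual degrees of freedom). The second day was tested with phase as a block (3). Folds are on the scale with the added constant, so those of low genes are understated. Junction counts were tested with edgeR 4.0.16. P-values were adjusted by Benjamini-Hochberg over all genes. DESeq2 1.42.0, edgeR on recovered reads, other scalings, filters, pseudocounts and left-out libraries were alternatives. Scripts were tested on simulated data. The members, lists and rules were chosen with earlier results of these data known. Named were all 10 genes, every called gene of a pathway list and its 2 most abundant uncalled ones, the 3 genes most like each called member, Arntl and Dbp. One gene that this rule names is not reported here.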

Additional observations from a re-analysis of the deposited data

Results flagged for a closer look

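For 3 genes the contrast of mid subjective day with mid subjective night had opposite directions on the 2 days, by at least 0.5 on the log2 scale each way. For Mfsd2a it was 1.15 on the second day (CT53 minus CT65) and -0.83 on the first (CT29 minus CT41). For Pcyt2 it was 0.74 on the second and -1.18 on the first, and for Etnk2 0.64 and -0.55. On transcripts with the most reads the directions were the same, but Pcyt2 had 0.57 on the second day and -0.56 on the first, and Etnk2 0.33 and -0.55, so that Etnk2 no longer reached 0.5 each way. The difference between days, tested across all genes with an interaction term (limma, 2 residual degrees of freedom), was not called for any of the 10930 genes. It was 1.98 ± 0.89 for Mfsd2a (adjusted p = 0.82), 1.92 ± 0.53 for Pcyt2 (adjusted p = 0.71) and 1.19 ± 0.55 for Etnk2 (adjusted p = 0.82).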

How the results depend on the processing

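Chka was called for the 24-h component under all 20 alternatives. Without a filter on low values (25 genes called in all) 1 of the 10 genes remained called, with Gpcpd1 at an adjusted p of 0.096 and Mfsd2a at 0.11; more genes are then tested. Mfsd2a was also lost on most-read transcripts without CT35 (0.15), and the cause was not tested. Of single-gene values, 484 kept their call, 18 lost it and 17 gained one. Most of these values are peak-to-trough differences, which have no sign. A change of direction could show only in the contrasts of phases, and none changed direction there.

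Counts of all genes called moved by over 1.5 times as follows; the cause was not tested. For the 24-h component 201 became 576 with DESeq2, 353 on most-read transcripts, 322 there with TMM, 406 there with edgeR and 483 there without CT35. For CT23 minus CT11 144 became 24 without filter, 360 with DESeq2, 230 on most-read transcripts and 258 there with edgeR; 1 of the 10 genes was called without filter, against 3. For CT5 minus CT17 70 became 0 without filter (the limma test; 1318 genes had an unadjusted p under 0.05 with it), 210 with DESeq2, 146 on most-read transcripts, 113 there with TMM, 144 there with edgeR and 312 there without CT35. In that contrast 1 of the 10, against 0, was called with DESeq2, on most-read transcripts, and there without CT35. For introns 128 became 218 on most-read transcripts, and the 10 genes had 2 calls there, 2 there without CT35, 2 with all introns and 1 with 0.2 added, against 0. For exon minus intron 2 became 0 with all introns, 1 with 0.2 added, 7 on most-read transcripts and 14 there without CT35. For junctions 129 became 483 without a minimum, with 4 of the 10 called, against 2.

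Leaving out 1 library gave 89 to 273 genes for the 24-h component, with 3 of the 10 called each time; it was 103 without CT23, 93 without CT41, 95 without CT53, 89 without CT59 and 273 without CT35. It gave 32 to 159 for CT23 minus CT11 (2 to 3 of the 10), with 38 without CT23, 72 without CT47 and 32 without CT59. It gave 5 to 178 for CT5 minus CT17 (0 to 1), with 5 without CT29, 178 without CT35, 18 without CT41, 9 without CT53 and 33 without CT65. It gave 97 to 148 for introns (0 to 2), 0 (CT29) to 12 (CT35) for exon minus intron (0), 58 (CT23) to 181 (CT35) for junctions (0 to 2), with 78 without CT41 or CT59, and 0 to 1 (CT23, CT47) for the second minus the first day (0). The labels give no replicate numbers, and the comparison of days, which pairs the 4 phases, had phase as a block. Chka in CT59 rested on 12 reads and Mfsd2a in CT23 on 18, which limits their troughs.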
